A study of Mus musculus with 24 samples.

Results

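The libraries described here are ribosome pulldowns from the hippocampus of mice that carry a non-phosphorylatable form of the translation factor eIF2α in excitatory neurons. They were prepared from mice taken 1 h after fear conditioning, a training in which a shock to the feet ends a tone, or from naive mice of the same genotype. The comparison uses 6 of the 24 libraries of the series, 3 per group, and the 12769 of 51733 genes in the table that reached 1 CPM (the count of a gene after every library is scaled to the same total) in at least 3 of those 6 libraries. The mice were conditional knock-in (cKI) animals: eIF2α A/A, with alanine in place of the phosphorylated serine on both alleles, plus a floxed transgene of eIF2α that Cre recombinase removes. Cre was driven by the CaMKIIα promoter, which is active in excitatory forebrain neurons. All were C57BL/6 males of 2 to 3 months. RiboTag, a Cre-dependent HA-tagged ribosomal protein Rpl22, allowed ribosomes of Cre-positive cells to be pulled down with an antibody to HA. Each library comes from the pooled hippocampi of 1 mouse. The protocol describes a weak and a strong form of training, and the labels do not give which of them these mice received. The same contrast in control mice, which carry CaMKIIα-Cre without the knock-in, and in the whole-lysate inputs of the cKI mice is used only to show where the cKI pulldown differs.

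Phosphorylation of eIF2α lowers general initiation of translation and favours some messages with upstream reading frames, such as that of the transcription factor Atf4. In the hippocampus it is known to hold back the formation of long-term memory. Learning also switches on immediate-early genes in activated neurons within minutes, through CREB and SRF among other factors. Their products include transcription factors of the Fos, Egr and Nr4a families, synaptic effectors such as Arc, and inhibitors of the ERK kinase pathway that end the signal.

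The pulldowns held 32.8 to 37.3 M counts each, so that 1 CPM is at least 32.82 counts. Levels below are CPM after TMM scaling, which corrects for differences in library composition, within pulldowns and within inputs. The pulldowns were rich in neuronal messages: excitatory neuron markers summed to 18084 to 19056 CPM in pulldowns against 10326 to 11452 CPM in inputs, and astrocyte markers to 724 to 832 CPM in pulldowns against 6951 to 7269 CPM in inputs. Sequencing lane differed between the groups, per the library labels. All 3 naive pulldowns and 1 h replicate 1 were in lane 5, while 1 h replicates 2 and 3 were in lane 6. Dentate granule cell markers differed too, and their values are given with the marker lists. Eif2s1, which encodes eIF2α, had 47.1, 48.1 and 47.2 CPM in 1 h pulldowns, against 45.1, 50.3 and 47.7 CPM in naive pulldowns. Reads of the A/A allele and of the transgene cannot be told apart in a table of counts per gene.

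One hour after conditioning, 6 genes rose and 1 fell in the cKI pulldown. Fosb, Plk3, Midn, Dusp5, Frmd6 and Jade2 were higher and Wnt9a was lower in all 3 conditioned mice than in all 3 naive mice. These 7 genes are 0.0548% of the genes tested (0.047% higher, 0.00783% lower), at an adjusted p under 0.05 in the quasi-likelihood test of edgeR. In all, 1769 genes (13.9%), these 7 included, had an unadjusted p under 0.05, with 990 higher (7.75%) and 779 lower (6.1%) 1 h after conditioning. Of the 7 called genes 6, all but Jade2, had a promoter in the table used, and those that hold a CREB half-site are printed because CREB and SRF act on promoter sites of this class of gene. Each shows the 250 bases before the transcription start, 5′ to 3′ on the strand of the gene, from RefSeq on GRCm38.p6. Capitals mark the CREB half-site TGACG on either strand and, in Dusp5, also a pair of adjacent CArG boxes, the sequence bound by SRF.

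Plk3, chr4:117133964-117134213, minus strand: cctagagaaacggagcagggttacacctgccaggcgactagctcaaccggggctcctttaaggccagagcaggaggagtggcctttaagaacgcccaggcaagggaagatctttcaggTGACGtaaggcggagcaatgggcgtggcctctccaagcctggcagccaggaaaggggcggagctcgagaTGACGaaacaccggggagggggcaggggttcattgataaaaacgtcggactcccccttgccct
Fosb, chr7:19310046-19310295, minus strand: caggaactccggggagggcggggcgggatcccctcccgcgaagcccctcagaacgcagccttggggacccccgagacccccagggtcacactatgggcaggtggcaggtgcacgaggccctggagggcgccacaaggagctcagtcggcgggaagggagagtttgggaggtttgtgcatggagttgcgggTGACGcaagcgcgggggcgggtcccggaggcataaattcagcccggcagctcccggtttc
Midn, the first of its 2 listed starts, chr10:80148022-80148271, plus strand: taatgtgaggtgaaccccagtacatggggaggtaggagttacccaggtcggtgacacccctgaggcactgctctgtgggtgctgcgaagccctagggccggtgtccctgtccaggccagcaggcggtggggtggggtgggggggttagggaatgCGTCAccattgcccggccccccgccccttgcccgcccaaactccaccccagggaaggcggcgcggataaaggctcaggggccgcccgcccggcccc
Dusp5, chr19:53528895-53529144, plus strand: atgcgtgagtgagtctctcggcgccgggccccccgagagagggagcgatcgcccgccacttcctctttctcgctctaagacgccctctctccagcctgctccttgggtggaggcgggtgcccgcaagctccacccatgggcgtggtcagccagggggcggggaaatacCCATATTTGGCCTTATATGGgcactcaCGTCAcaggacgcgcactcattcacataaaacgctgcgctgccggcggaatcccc

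The half-sites lie 132 and 63 bases before the start in Plk3, 60 in Fosb, 96 in Midn and 55 in Dusp5. No half-site was found in these windows of Frmd6 and Wnt9a or at the second start of Midn. The half-site was present for 31 of 51 genes (60.8%) of the activity lists described next that had a promoter in the table. It was present for 3014 of 9614 tested genes (31.4%) and for 5347 of all 27025 genes listed (19.8%). The full CREB site TGACGTCA was present for 13.7% of the activity genes and 3.2% of the tested genes. CArG boxes were present for 5.9% and 1.4%. These matches are a description of letters and were given no test.

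Fosb, a partner of Jun in the AP-1 transcription factor, had 16.5, 16.7 and 18.6 CPM in 1 h pulldowns, against 7.12, 6.18 and 7.36 CPM in naive pulldowns (log2 fold change 1.33, SE 0.15, edgeR adjusted p = 0.0062). The 1 h values sit close together and far above the naive ones, and the 1 h library of lane 5 gave one of them. Plk3, a polo-like kinase induced by neuronal activity, had 10.3, 10.8 and 11.0 CPM in 1 h pulldowns, against 5.24, 5.81 and 5.35 CPM in naive pulldowns (log2 fold change 0.97, SE 0.10, edgeR adjusted p = 0.0034). Its level was also uniform within each group. Midn, which directs short-lived nuclear proteins such as those of immediate-early genes to the proteasome, had 64.1, 88.0 and 81.7 CPM in 1 h pulldowns, against 38.2, 46.7 and 41.9 CPM in naive pulldowns (log2 fold change 0.88, SE 0.13, edgeR adjusted p = 0.032). Dusp5, a nuclear phosphatase of ERK, had 54.3, 76.5 and 67.3 CPM in 1 h pulldowns, against 30.3, 40.1 and 34.5 CPM in naive pulldowns (log2 fold change 0.92, SE 0.13, edgeR adjusted p = 0.032). In both genes replicate 1 was the lowest library of each group and replicate 2 the highest, with no overlap between the groups.

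Frmd6, a FERM domain protein, had 29.3, 34.6 and 30.7 CPM in 1 h pulldowns, against 20.4, 18.8 and 21.6 CPM in naive pulldowns (log2 fold change 0.64, SE 0.10, edgeR adjusted p = 0.032). Jade2, a PHD finger protein of a histone acetyltransferase complex, had 101.8, 119.8 and 121.4 CPM in 1 h pulldowns, against 78.9, 78.4 and 78.1 CPM in naive pulldowns (log2 fold change 0.54, SE 0.08, edgeR adjusted p = 0.032). Its naive values were almost identical, and the smallest 1 h value belonged to the lane 5 library. Wnt9a, a secreted Wnt ligand, had 5.22, 4.20 and 4.90 CPM in 1 h pulldowns, against 11.1, 10.9 and 9.37 CPM in naive pulldowns (log2 fold change -1.13, SE 0.17, edgeR adjusted p = 0.032). Its raw counts were 149 to 176 per 1 h library and 350 to 420 per naive library. The next genes in the lower direction did not pass the threshold. Inf2, a formin that remodels actin, had a log2 fold change of -0.49 (edgeR adjusted p = 0.085) and Sema3c, a secreted semaphorin, one of -0.65 (edgeR adjusted p = 0.18), each without overlap between the groups.

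**Figure D1:**
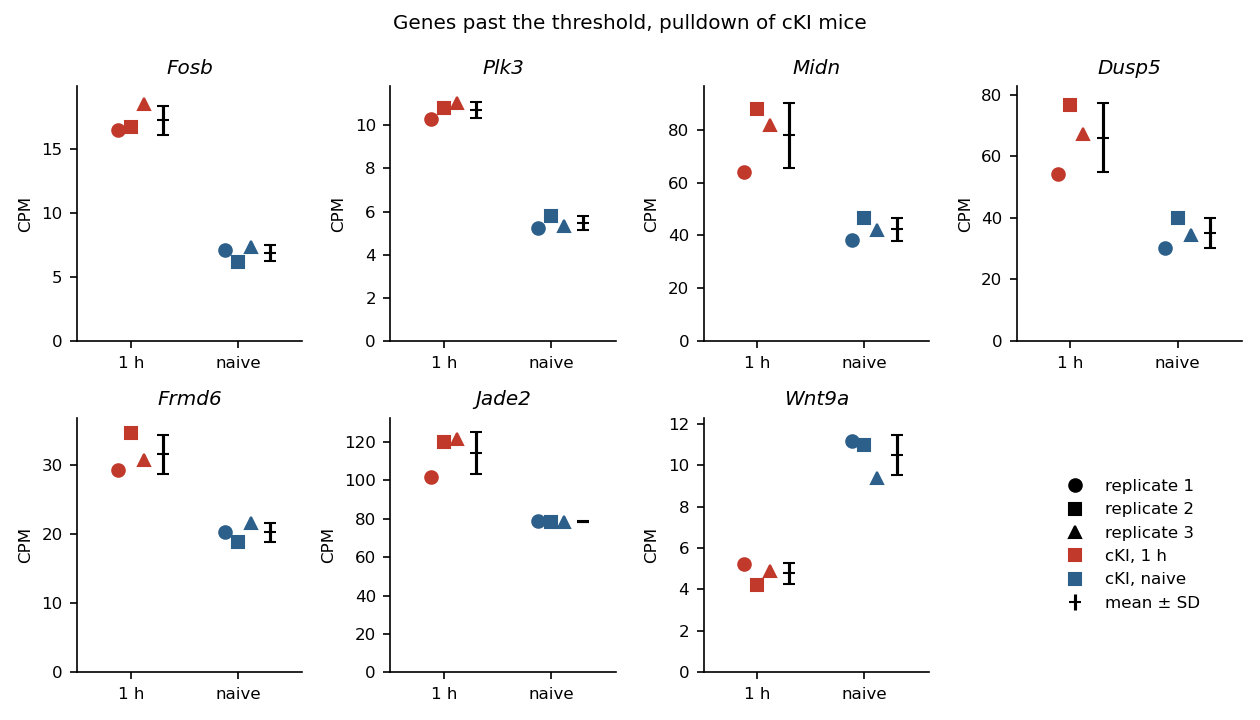
CPM of the 7 genes past the threshold in each cKI pulldown, 1 h after conditioning on the left and naive on the right of each panel, with marker shapes for the replicate and black bars for the mean ± SD (n = 3). The groups do not overlap in any panel; Fosb lies between 16.5 and 18.6 CPM 1 h after conditioning and between 6.18 and 7.36 CPM in naive mice.

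The number of calls moved with the model. With the replicate number as a block within each genotype 208 genes passed (129 higher, 79 lower), including all 7. This block was chosen after the data were seen, and the labels do not pair the mice of the 2 groups. With 1 block shared by both genotypes 30 passed. With lane as a covariate 0 genes passed in edgeR, 388 had an unadjusted p under 0.05, and the log2 fold change was 1.264 for Fosb (adjusted p = 0.35), 0.91 for Plk3 (adjusted p = 0.33), 0.60 for Midn, 0.63 for Dusp5, 0.38 for Jade2 and -1.005 for Wnt9a. The 6 fits that left out 1 library called 1 to 5 genes. Plk3 kept its call in all 6, while Frmd6 and Wnt9a lost theirs in all 6. Midn, Dusp5 and Jade2 kept theirs only without 1 h replicate 1, the 1 h library of lane 5. In that fit every 1 h library was in lane 6 and every naive library in lane 5. Fosb lost its call without naive replicate 1 and without naive replicate 2. On the 6 libraries alone only Fosb kept its call, and Plk3 had an edgeR adjusted p of 0.066.

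The activity-regulated genes were read in 3 lists by role: transcription factors, effectors, and inhibitors of ERK signalling. Of their 72 genes, 67 passed the filter on low values, and Klf4, Maff, Baz1a, Cyr61 and Dusp2 did not. Across the lists 4 of 67 genes rose, 0 fell, and 39 were higher without overlap between the groups, where 9.44% of all genes tested were. Another 3 were lower without overlap, where 7.84% of all genes were. The median log2 fold change of the 67 was 0.31, against 0.003 over all genes tested. With the replicate block within genotype 15 of the 67 passed, and with lane as a covariate 0 did.

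Among 26 immediate-early transcription factors 1 rose, Fosb. In this list 17 were higher without overlap and 1, Klf2, was lower, beside 9.44% and 7.84% of all genes. The median log2 fold change was 0.33. Egr2, a zinc finger factor, had the largest fold change of the list, with 14.4, 19.3 and 15.6 CPM in 1 h pulldowns, against 2.00, 4.74 and 5.08 CPM in naive pulldowns (log2 fold change 2.05, SE 0.36, edgeR adjusted p = 0.14). Naive replicate 1 was well below the other naive libraries. Fos had 16.3, 21.6 and 18.5 CPM in 1 h pulldowns, against 5.30, 8.23 and 8.75 CPM in naive pulldowns (log2 fold change 1.34, SE 0.29, edgeR adjusted p = 0.20). Nr4a1, an orphan nuclear receptor, had 139, 214 and 172 CPM in 1 h pulldowns, against 56.9, 88.1 and 69.5 CPM in naive pulldowns (log2 fold change 1.29, SE 0.23, edgeR adjusted p = 0.17). In these 3 genes the groups stood apart although none passed the threshold, and replicate 2 was the highest of the 1 h libraries. Egr4, Egr1, Junb, Nr4a2 and Nr4a3 had log2 fold changes of 0.93, 0.79, 0.78, 0.76 and 0.66, all without overlap and with edgeR adjusted p between 0.14 and 0.23. Egr2, Egr4, Nr4a2 and Nr4a3 were named after their values were seen. Npas4, a neuronal factor that responds to calcium entry, had 5.84, 6.34 and 5.59 CPM in 1 h pulldowns, against 3.79, 5.03 and 5.32 CPM in naive pulldowns (log2 fold change 0.33, edgeR adjusted p = 0.64). Jun, the partner of Fos, had 141, 63.3 and 83.0 CPM in 1 h pulldowns, against 156, 119 and 181 CPM in naive pulldowns (log2 fold change -0.67, SE 0.41, edgeR adjusted p = 0.48). Its groups overlapped, and its log2 fold change was 0.04 with the granule marker level as a covariate.

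Among 30 activity-induced effectors Plk3 and Midn rose. In this list 13 genes were higher without overlap and 1, Scg2, was lower. The median log2 fold change was 0.24. This median was 0.07 with lane as a covariate, 0.11 with the granule marker level as a covariate and 0.14 without 1 h replicate 2. Arc, which traffics AMPA receptors out of the synapse, had 365, 476 and 394 CPM in 1 h pulldowns, against 162, 249 and 260 CPM in naive pulldowns (log2 fold change 0.88, SE 0.26, edgeR adjusted p = 0.26). Sik1, a kinase that restrains CREB signalling, had 12.0, 10.5 and 12.6 CPM in 1 h pulldowns, against 6.00, 6.85 and 7.97 CPM in naive pulldowns (log2 fold change 0.75, SE 0.13, edgeR adjusted p = 0.090). Vgf, a neuropeptide precursor, had 264, 368 and 311 CPM in 1 h pulldowns, against 214, 260 and 220 CPM in naive pulldowns (log2 fold change 0.44, edgeR adjusted p = 0.24). None of these 3 overlapped between the groups. Sik1 and Vgf passed with the replicate block within genotype, at edgeR adjusted p of 0.023 and 0.018. That block was chosen after the data were seen. Homer1, a scaffold of the postsynaptic density, had a log2 fold change of 0.28 (edgeR adjusted p = 0.30). Bdnf, the growth factor, had 65.1, 71.1 and 68.1 CPM in 1 h pulldowns, against 63.7, 78.6 and 61.8 CPM in naive pulldowns, with a 95% interval of its log2 fold change of -0.25 to 0.25. Its counts sum all transcripts of the gene, and its groups overlapped.

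Among 11 inhibitors of ERK signalling Dusp5 rose, 9 were higher without overlap, and the median log2 fold change was 0.37. Dusp6, a cytosolic phosphatase of ERK, had 121, 196 and 163 CPM in 1 h pulldowns, against 79.1, 101 and 89.4 CPM in naive pulldowns (log2 fold change 0.83, SE 0.18, edgeR adjusted p = 0.20). Spry4, which acts between receptor kinases and ERK, had 14.6, 17.5 and 19.3 CPM in 1 h pulldowns, against 7.33, 11.5 and 8.43 CPM in naive pulldowns (log2 fold change 0.91, edgeR adjusted p = 0.20). Dusp1 had a log2 fold change of 0.56, Dusp4 of 0.38, Spred1 of 0.37 and Errfi1 of 0.33, with edgeR adjusted p from 0.19 to 0.24. Dusp14 went the other way, at 25.4, 17.9 and 22.6 CPM in 1 h pulldowns, against 29.04, 31.0 and 30.3 CPM in naive pulldowns (log2 fold change -0.46, edgeR adjusted p = 0.28).

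**Figure D2:**
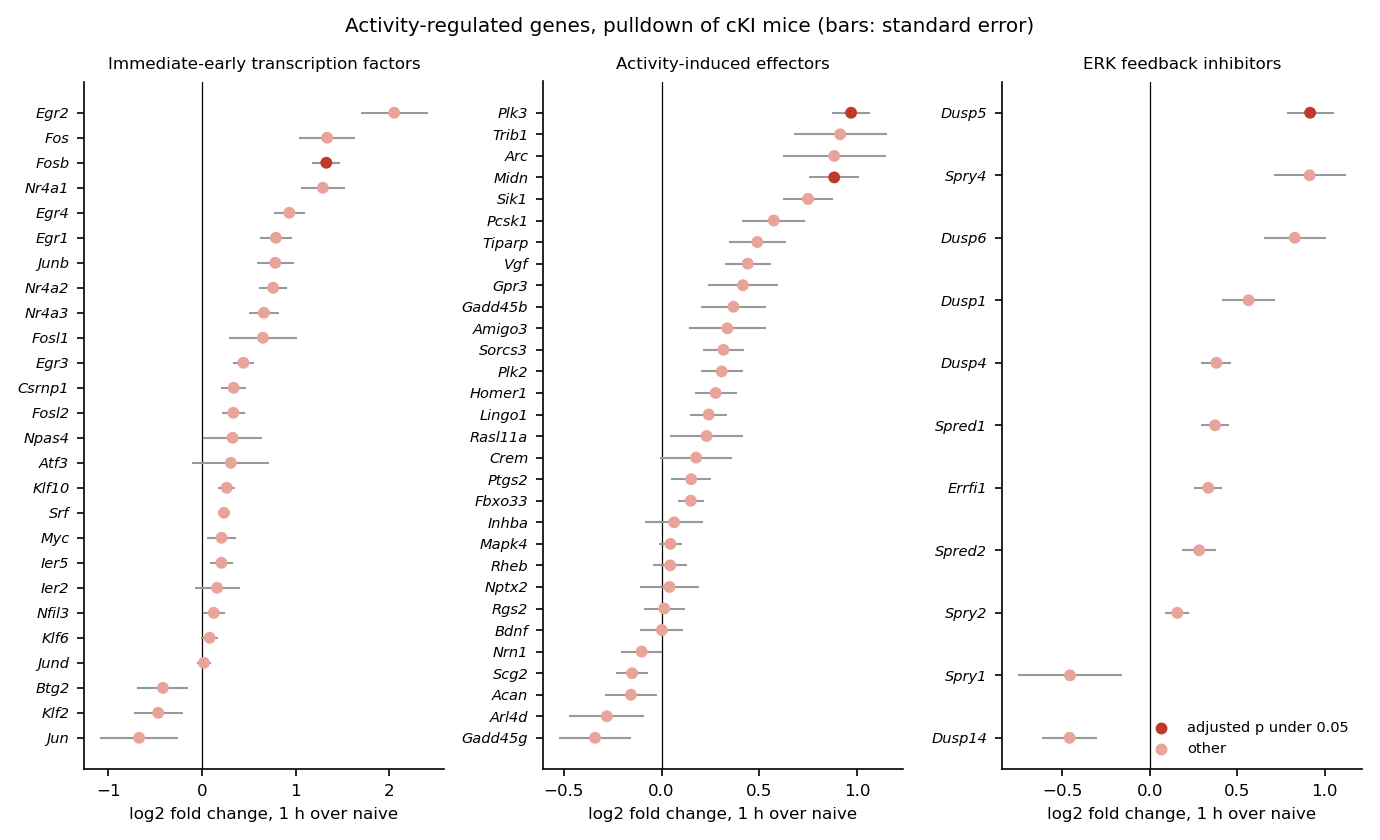
Log2 fold change, 1 h over naive, of the 67 activity-regulated genes tested in the cKI pulldown, in panels by role and with bars for the standard error. The 4 dark points (Fosb, Plk3, Midn and Dusp5) passed the threshold; Egr2 has the largest log2 fold change, 2.05, and Jun the lowest, -0.67.

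In control mice, on other libraries that were all in lane 6, the same contrast called 36 genes (0.282% of those tested; 17 higher, 0.133%, and 19 lower, 0.149%). Fosb rose there by a log2 fold change of 1.29 (edgeR adjusted p = 0.0035), against 1.33 in cKI mice. The difference between genotypes was 0.04, with a 95% interval of -0.44 to 0.52. Plk3 rose by 0.56 in control mice (edgeR adjusted p = 0.042), and cKI mice exceeded this by 0.41 (interval 0.09 to 0.72, edgeR adjusted p = 0.34). Egr2 and Egr4 rose in control mice with log2 fold changes of 2.11 and 0.95, both at an edgeR adjusted p of 0.048. In cKI mice their fold changes were 2.05 and 0.93 and did not pass. Errfi1 rose in control mice by 0.49 (edgeR adjusted p = 0.039), against 0.33 in cKI mice, which did not pass. Among fits that left out 1 control library, only that without 1 h replicate 1 kept the control calls of Egr2, Egr4 and Errfi1. Each of these fits kept Fosb and lost Plk3. On the 6 control libraries alone Fosb, Plk3, Egr2, Egr4 and Errfi1 all lost their calls. Jade2 had log2 fold changes of 0.54 in cKI mice and -0.02 in control mice (difference 0.56, interval 0.30 to 0.83, edgeR adjusted p = 0.24). Wnt9a had log2 fold changes of -1.13 in cKI mice and -0.20 in control mice (difference -0.93, interval -1.48 to -0.38, edgeR adjusted p = 0.28). Nr4a2 had 0.76 and 0.15, Dusp1 0.56 and -0.13, and Vgf 0.44 and -0.09, the cKI value first in each pair. Others had the smaller value in cKI mice. Klf2 had -0.47 and 0.50, Gadd45g -0.34 and 0.40, Nrn1 -0.10 and 0.23, and Dusp14 -0.46 and 0.08. The edgeR adjusted p of the difference ran from 0.31 to 0.49 over the genes of these pairs. Of the 67 activity genes 0 differed between the genotypes past the edgeR threshold, beside 2 of all genes (0.0157%); the total at an unadjusted p under 0.05 was 1278 (10%). At an unadjusted p under 0.05, 10 of them had a larger fold change in cKI mice and 4 a smaller one, beside 5.99% and 4.02% of all genes. Genotype and lane are in part confounded in this difference.

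The inputs of the same cKI mice, sequenced together in lane 4, called 3 of 12698 genes (0.0236%). Fosb rose, with 17.7, 16.8 and 15.7 CPM in 1 h inputs, against 8.27, 7.29 and 7.24 CPM in naive inputs (log2 fold change 1.14, SE 0.14, edgeR adjusted p = 0.0089). Wnt9a fell, with 4.47, 4.17 and 4.76 CPM in 1 h inputs, against 9.09, 8.43 and 7.40 CPM in naive inputs (log2 fold change -0.90, SE 0.11, edgeR adjusted p = 0.0089). Neither gene's values overlapped between the groups in inputs. Both lost their input calls without 1 h replicate 1, without 1 h replicate 2 and without naive replicate 2. Wnt9a also lost its input call without naive replicate 1 and with the replicate block. The third, Hif3a, had a log2 fold change of -0.72 in inputs (edgeR adjusted p = 0.0089) and -0.25 in pulldowns. Plk3 had 9.27, 9.16 and 8.56 CPM in 1 h inputs, against 8.21, 8.54 and 8.36 CPM in naive inputs, a log2 fold change of 0.10. Its change in the pulldown exceeded that in the input by 0.87 (SE 0.11, edgeR adjusted p = 0.055). Dusp5 had 29.6, 30.8 and 28.8 CPM in 1 h inputs, against 20.9, 20.1 and 25.8 CPM in naive inputs (log2 fold change 0.42, edgeR adjusted p = 0.34), without overlap. Midn, Frmd6 and Jade2 had log2 fold changes of 0.17, 0.16 and 0.16 in inputs. The test of pulldown against input called 0 genes (0%) in edgeR (890, or 6.97%, had an unadjusted p under 0.05) and 5 in DESeq2; without 1 h pulldown replicate 1 edgeR called 196. Among the activity genes 15 had a larger fold change in the pulldown and 5 a smaller one at an unadjusted p under 0.05, beside 3.67% and 3.3% of all genes.

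**Figure D3:**
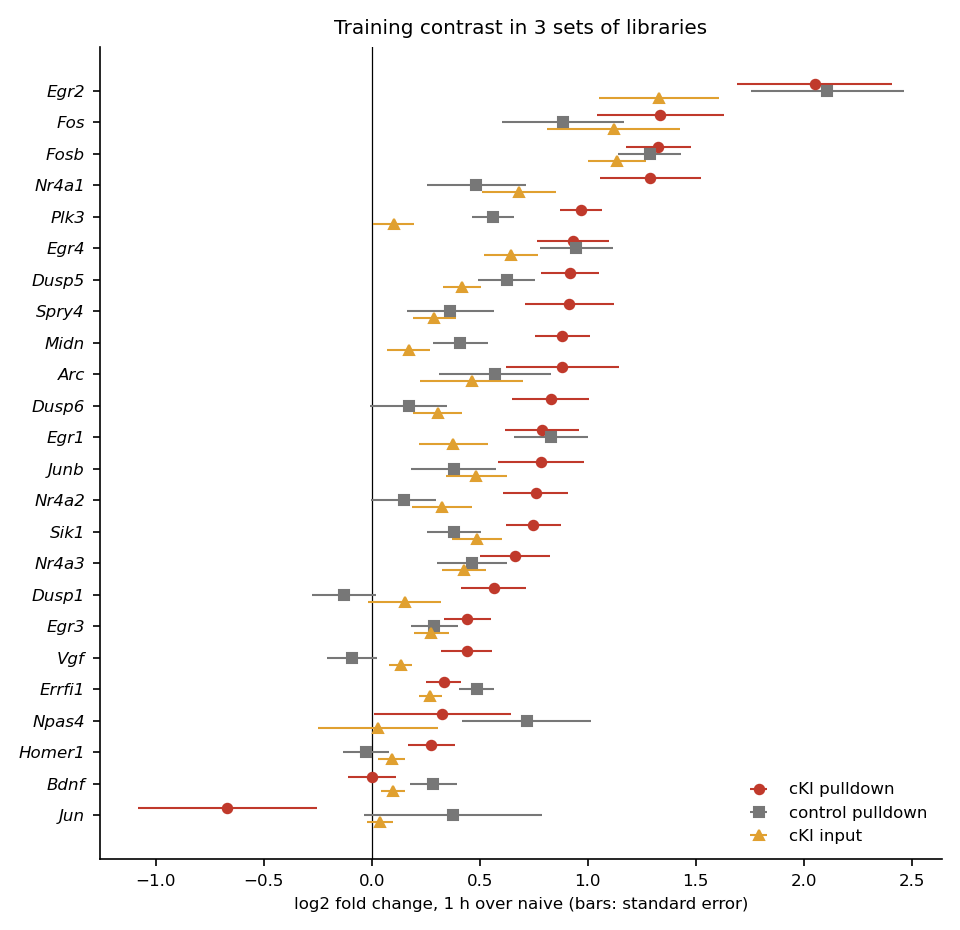
Log2 fold change, 1 h over naive, with standard error bars for 24 activity-regulated genes in the cKI pulldown (circles), the control pulldown (squares) and the cKI input (triangles). Fosb lies at 1.33, 1.29 and 1.14 in the 3 sets, while Plk3 lies at 0.97, 0.56 and 0.10.

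Genes of the pathway that the knock-in alters showed small differences between conditioned and naive mice. Of 19 genes of the eIF2 pathway 0 passed in edgeR (1 had an unadjusted p under 0.05), the median log2 fold change was -0.02 and the range -0.18 to 0.24. The highest was Impact, whose product restrains the kinase GCN2 that targets eIF2α, at 0.24 (edgeR adjusted p = 0.25). Of 42 ATF4 targets tested 0 passed in edgeR, 5 were higher and 1 lower at an unadjusted p under 0.05, beside 7.75% and 6.1% of all genes, and the median was 0.04; with lane in the model this median was -0.07. Atf4 itself had 103, 131 and 115 CPM in 1 h pulldowns, against 87.4, 99.6 and 92.3 CPM in naive pulldowns (log2 fold change 0.32, SE 0.10, edgeR adjusted p = 0.26). Gpt2, an alanine transaminase and ATF4 target, had 91.8, 110 and 102 CPM in 1 h pulldowns, against 73.9, 81.0 and 71.9 CPM in naive pulldowns (log2 fold change 0.42, edgeR adjusted p = 0.18). Both were higher without overlap. Both passed with the replicate block within genotype, which was chosen after the data were seen. Gpt2 rose in control mice, by a log2 fold change of 0.48 (edgeR adjusted p = 0.042). Each fit that left out 1 control library lost this call.

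Dentate granule cell markers had lower levels in 1 h pulldowns, with wide spread between mice. Of 18 markers 17 had a negative log2 fold change, 5 were lower without overlap, where 7.84% of all genes were, and 0 passed in edgeR. At an unadjusted p under 0.05, 3 were lower, beside 6.1% of all genes, and the median was -0.93. Their summed level was 1884, 769 and 1149 CPM in 1 h pulldowns, against 2298, 1819 and 2490 CPM in naive pulldowns (exact two-sided permutation p = 0.2, where 3 against 3 libraries cannot go below 0.1). The 1 h library of lane 5 overlapped the naive range and both lane 6 libraries lay below it. Within lane 5 the median was -0.20, without 1 h replicate 1 it was -1.55, and without 1 h replicate 2 it was -0.56. In the inputs of these mice the sum was 1573, 1581 and 1551 CPM at 1 h, against 1571, 1563 and 1599 CPM in naive mice. Control pulldowns, all in lane 6, spread as widely, with 1731, 1570 and 773 CPM at 1 h, against 1848, 825 and 835 CPM in naive mice. Prox1, the transcription factor that defines granule cells, had 158, 26.8 and 68.9 CPM in 1 h pulldowns, against 206, 118 and 212 CPM in naive pulldowns. The summed granule marker level was thus lower in pulldowns but not in inputs, where its log2 ratio of 1 h to naive was -0.008. Counts from pooled tissue do not give the number of granule cells with tagged ribosomes or the RNA per cell. The cause of the pulldown difference was not tested. Its part in the results above was not tested beyond the covariate fit. With the granule marker level as a covariate Fosb (1.28) and Plk3 (0.87) passed and the other 5 did not.

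CA1 pyramidal markers had the opposite sign. Of 11 markers 10 had a positive log2 fold change, 6 were higher without overlap, where 9.44% of all genes were, and 0 passed in edgeR. At an unadjusted p under 0.05, 6 were higher, beside 7.75% of all genes. The median was 0.35, 0.16 within lane 5 and 0.10 with the granule marker level as a covariate. Their sum was 2193, 2851 and 2617 CPM in 1 h pulldowns, against 1899, 2295 and 1934 CPM in naive pulldowns (exact two-sided permutation p = 0.2). Neurod6, a neuronal transcription factor, had 451, 580 and 545 CPM in 1 h pulldowns, against 398, 446 and 360 CPM in naive pulldowns (log2 fold change 0.39, edgeR adjusted p = 0.27). The 17 markers of CA3 and CA2 had a median of 0.18. Sums of inhibitory neuron, astrocyte, oligodendrocyte, microglia and vessel markers had a log2 ratio of 1 h to naive between -0.07 and 0.13. Gad1, of inhibitory neurons, had 114, 51.9 and 87.5 CPM in 1 h pulldowns, against 95.1, 106 and 102 CPM in naive pulldowns. The choroid plexus and ependymal sum was 54.6, 56.7 and 59.7 CPM in 1 h pulldowns, against 44.3, 42.9 and 43.3 CPM in naive pulldowns (exact two-sided permutation p = 0.1, the smallest possible). In inputs it was 98.9, 296 and 368 CPM at 1 h, against 60.5, 84.8 and 63.3 CPM in naive mice. Of its 20 genes 7 were tested.

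**Figure D4:**
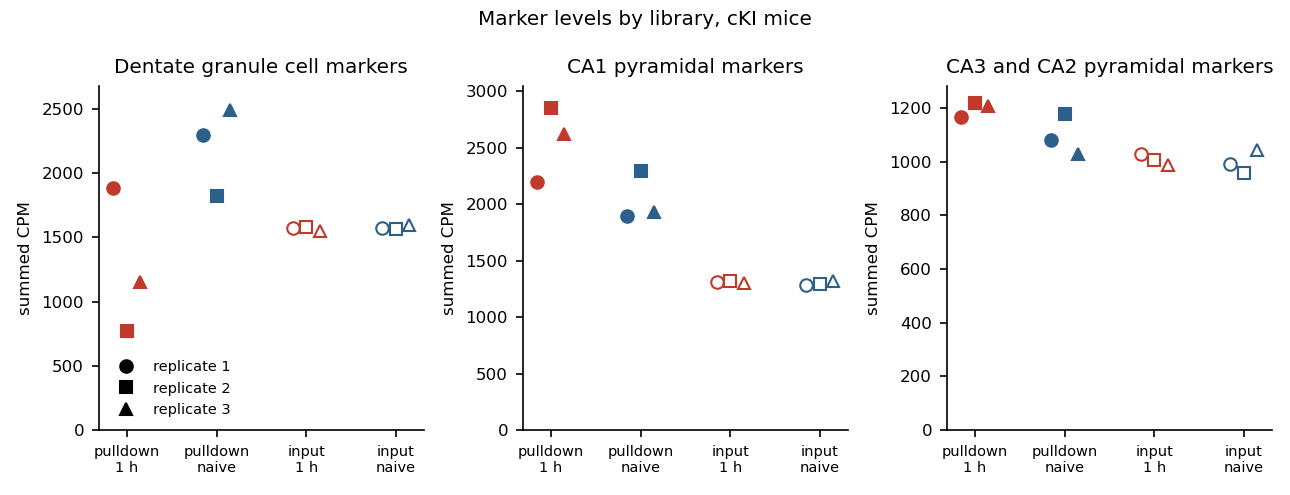
Summed CPM of the markers of dentate granule cells, CA1 and CA3 with CA2 in each cKI library, filled for pulldowns and open for inputs, with marker shapes for the replicate. Granule markers spread from 769 to 1884 CPM in 1 h pulldowns and from 1819 to 2490 CPM in naive pulldowns, and stay between 1551 and 1599 CPM in inputs.

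The remaining lists had no called member in edgeR. Of 73 cytosolic ribosomal protein genes 70 had a negative log2 fold change, 8 were lower without overlap, and 10 were lower at an unadjusted p under 0.05, beside 7.84% and 6.1% of all genes; the median was -0.17, and -0.24 to -0.04 with a library left out. Counts of these genes are uncertain, since they have many near-identical pseudogenes. Of 54 nuclear genes of oxidative phosphorylation 50 were negative, where 6267 of all 12769 genes tested were. In this list 3 genes were lower without overlap and 1 at an unadjusted p under 0.05. These are smaller shares than the 7.84% and 6.1% of all genes. The median was -0.10. That median was -0.20 with lane as a covariate, -0.17 with the granule marker level as a covariate, -0.06 without 1 h replicate 1 or without 1 h replicate 3, -0.20 without 1 h replicate 2 and -0.15 without naive replicate 1 or without naive replicate 3. Without naive replicate 2 it was 0.02, and the ribosomal median -0.04. Among clock genes Per1, which responds to CREB, had 137, 155 and 153 CPM in 1 h pulldowns, against 93.8, 111 and 113 CPM in naive pulldowns (log2 fold change 0.49, edgeR adjusted p = 0.19). Bhlhe40, a repressor in the same list, had 209, 233 and 249 CPM in 1 h pulldowns, against 167, 187 and 165 CPM in naive pulldowns (log2 fold change 0.41, edgeR adjusted p = 0.17). Ucp2, a mitochondrial carrier of the list with upstream reading frames, had 4.33, 2.09 and 3.24 CPM in 1 h pulldowns, against 8.30, 5.84 and 8.11 CPM in naive pulldowns (log2 fold change -1.20, edgeR adjusted p = 0.20). These 3 separated the groups and none passed the threshold. All 3 passed with the replicate block within genotype, which was chosen after the data were seen. They are single members of mixed lists. Of 18 clock genes 7 had a positive and 11 a negative log2 fold change, with a median of -0.08. Of 20 genes with upstream reading frames 12 were positive and 7 negative, with a median of 0.03, and Ucp2 was the lowest.

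**Figure D5:**
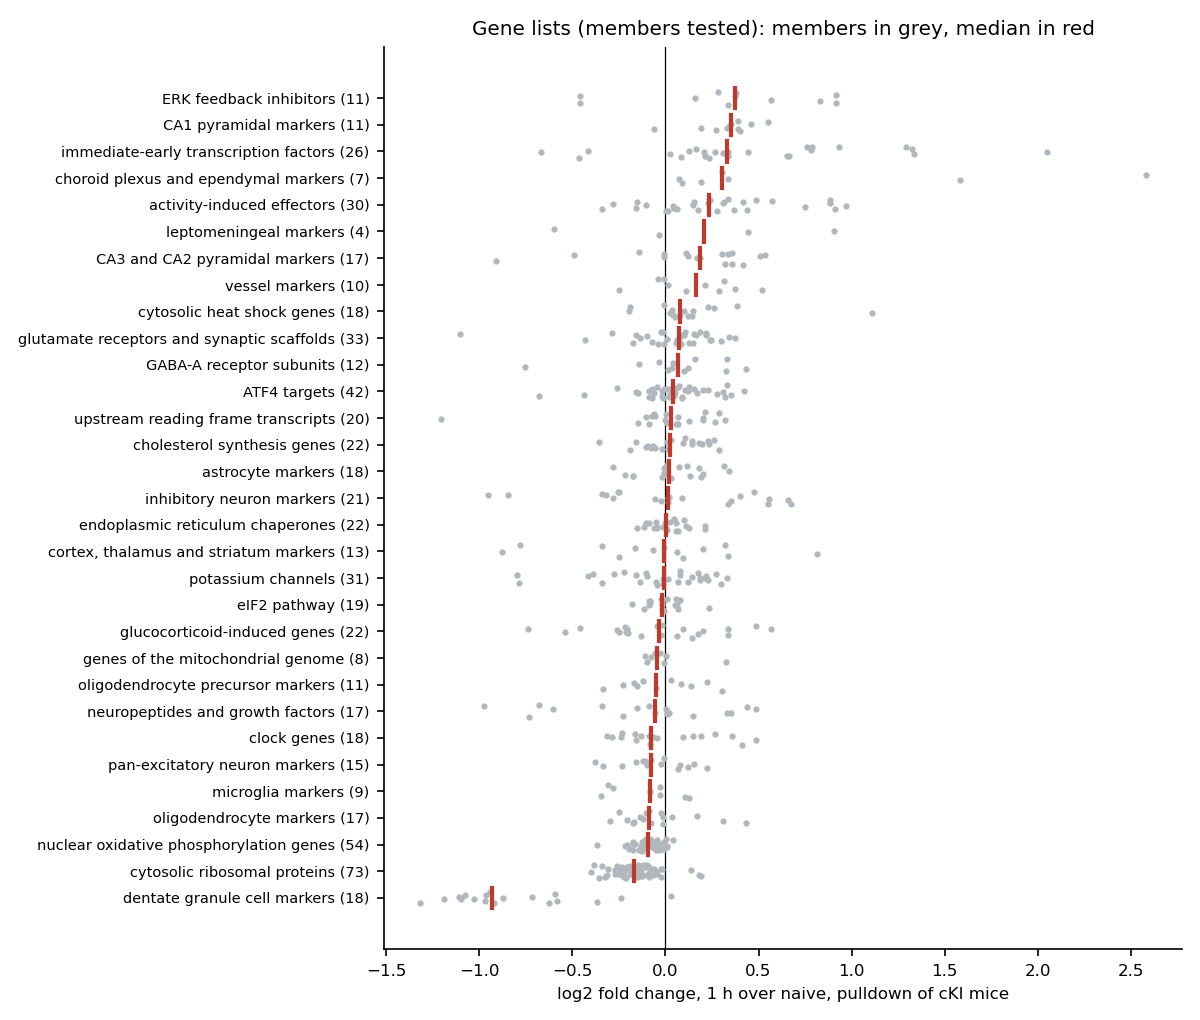
Log2 fold change, 1 h over naive, in the cKI pulldown for the tested members of each gene list (grey points; the number tested stands in brackets) with the list median in red. ERK feedback inhibitors have the highest median of these lists, 0.37, and dentate granule cell markers the lowest, -0.93.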

How the data were processed

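RNA of 6 pulldown libraries (3 per group) and of the comparison libraries was sequenced paired-end after poly(A) selection with a kit that keeps strand, per the labels' protocols. The authors deposited a table of raw, whole-number counts for each gene, without normalization. Cutadapt, Bowtie and DESeq2 were used, per the submitters' processing notes; the build, the counting tool and its strand setting are not given in the sources used. All 12 pulldowns were fitted together, with 1 mean per group, in edgeR 4.0.16 (R 4.3.3; TMM, robust quasi-likelihood, Benjamini-Hochberg adjustment, threshold 0.05) on genes with at least 1 CPM in at least 3 of the 6 libraries compared; inputs were fitted likewise. The pulldown against input test used the 12 cKI libraries. SE is the log2 fold change over the root of the quasi-likelihood F. The 95% intervals are wider than the edgeR tests imply. In the cKI pulldown Gadd45b had an unadjusted edgeR p of 0.0467 and an interval of -0.02 to 0.75. Alternatives are given in the closing section, with DESeq2 1.42.0 among them. Scripts were tested on simulated data.

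Deviations of same-numbered cKI pulldowns from their group means had r = 0.177, 0.361 and 0.145 across genes, against 0.255, -0.33 and 0.299 in control pulldowns. One cKI pair with different numbers, 1 h replicate 1 and naive replicate 3, had r = 0.24. The pairing is a reading of the data and is not given by the labels. Counts of replicates differed by more than sampling noise, so none were merged.

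Members, lists and tests were chosen with earlier results of these data known. The rule for named genes takes up to 12 called genes per direction that do not overlap between groups and average 2 or more on the log2 CPM scale (or the 5 smallest p), called activity genes, up to 4 members per other list, the 5 smallest p of each interaction and a fixed set; a selection is printed. Other activity genes were named after their values were seen. Promoters matched 51 of 67 activity genes by symbol.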

Additional observations from a re-analysis of the deposited data

Results flagged for a closer look

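The training contrast differed between genotypes past the edgeR threshold for 2 genes of the pulldown, by the interaction of genotype and training. Manba, a lysosomal mannosidase, differed by 1.62 on the log2 scale (SE 0.22, edgeR adjusted p = 0.042). It had 5.40, 6.43 and 6.28 CPM in cKI 1 h pulldowns, against 5.91, 4.92 and 5.22 CPM in cKI naive pulldowns. In control mice it had 2.17, 1.99 and 1.70 CPM in 1 h pulldowns, against 4.53, 6.47 and 4.93 CPM in naive pulldowns. The 3 control 1 h libraries thus stand apart from the other 9.

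Banp, a nuclear matrix protein that binds DNA, differed by -0.79 on the log2 scale (SE 0.10, edgeR adjusted p = 0.032). It had 34.4, 35.3 and 33.8 CPM in cKI 1 h pulldowns, against 37.6, 39.7 and 40.7 CPM in cKI naive pulldowns. In control mice it had 38.1, 41.7 and 36.8 CPM in 1 h pulldowns, against 27.2, 23.9 and 25.9 CPM in naive pulldowns. The control naive libraries were the lowest. Both genes were in a list taken from earlier results of these data, in which they had shown such a step between groups, so their calls here are not independent evidence.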

How the results depend on the processing

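For the cKI pulldown contrast, with 7 calls, DESeq2 size factors and the filterByExpr rule also gave 7. No filter gave 25, the replicate block 30, the replicate block within genotype 208, the granule marker level as a covariate 2, lane as a covariate 0, lane 5 alone 0, the 6 libraries alone 1 and the DESeq2 Wald test 130; leaving out 1 library gave 1 to 5. The activity lists, with 4 calls, had 11, 15, 2, 0, 0, 1 and 23 in the same order from the replicate block on, and 1 to 4 with a library left out. The block within genotype and lane 5 alone were chosen after seeing the data. In cKI mice both lane fits rest on 1 conditioned mouse, so their counts of calls cannot show what depends on lane. The control contrast, with 36, had 112 with no filter, 98 with the block within genotype, 144 with the granule covariate, 9 with lane, 267 by Wald test and 6 to 38 with a library left out. The genotype interaction, with 2, had 16, 13, 0, 0 and 74 in that order, 0 with the replicate block and 0 to 5 with a library left out. On its 6 libraries alone the control contrast had 48, 0 of them in the activity lists. All control pulldowns were in lane 6, so the lane term cannot adjust the control contrast. The 9 calls with lane thus do not show that control calls depend on lane. The cKI input contrast, with 3, had 18 on its 6 libraries, 25 by Wald test and 0 to 4 with a library left out. The pulldown against input test, with 0, had 5 by Wald test, 0 with the mouse as a block (the replicate block by mouse) and 0 to 196 with a library left out. Causes were not tested. The granule marker sum had a log2 ratio of -0.80, and -1.20 to -0.54 with a library left out.

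Signs turned for uncalled genes: Jun to 0.038, Prox1 to 0.214 and Gad1 to 0.064 with the granule covariate; Gad1 to 0.180 with lane, 0.182 in lane 5 and 0.003 without 1 h replicate 2; Bdnf to -0.001 with no filter, -0.064 with lane, -0.062 in lane 5, -0.002 on 6 libraries and -0.026, -0.043 and -0.064 without 1 h replicate 2, naive replicate 1 or naive replicate 3; Eif2s1 to 0.033 and Camk2a to -0.030 without naive replicate 2. With a library left out, values ran from -0.064 to 0.118 for Bdnf, -0.046 to 0.033 for Eif2s1, -0.030 to 0.263 for Camk2a and -0.535 to 0.003 for Gad1. At 3 mice a group, and with lane partly confounded with training, a gene that missed the threshold is not shown to be unchanged.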
